A study of Arabidopsis thaliana with 6 samples.

Results

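Chitinase genes that lie side by side on chromosome 2 of Arabidopsis were examined in 10-day-old seedlings of wild type (WT) and of a line that over-expresses the rice homeobox gene OsHOX24 (35S::OsHOX24). The genes are CHI (AT2G43570), AT2G43580, AT2G43590, AT2G43600, AT2G43610 and AT2G43620, and each had a probe set assigned to 1 gene, so 6 of the 7 genes considered could be read, among 13286 genes with such a probe set. The remaining gene, the related EP3 (AT3G54420) on chromosome 3, was not analysed here. The cluster was chosen on the lower signal of CHI in 35S::OsHOX24 on these same arrays, and the other genes were taken for their position beside CHI or their relation to it. The differences between genotypes of all 6 genes are therefore given as a description, with no test.

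Chitinases cut chitin, a polymer of N-acetylglucosamine that fungal cell walls and insect cuticles contain and that plants do not make. The genes of this cluster belong to the class IV chitinases of the GH19 family of glycoside hydrolases, which are secreted enzymes of plant defence. A plant senses chitin fragments at the cell surface through LysM receptor kinases, and many chitinase genes are induced together with other defence genes by pathogens and by the hormones salicylic acid, jasmonate and ethylene. CHI itself is known as a gene that responds to salicylic acid.

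Both genotypes were of the Columbia ecotype and were grown under 14 h of light and 10 h of darkness, with no stress applied. The methods of the paper name both pots and MS plates for Arabidopsis. The transgene is driven by the 35S promoter, which is active in most tissues, and all transgenic seedlings came from a single line, HZIP1-2.3, so that an effect of the transgene cannot be told apart from one of its insertion site. A group held 3 arrays of total RNA, described as independent biological replicates, so there were 6 arrays in all. The values are MAS5 signals on the log2 scale, in which a difference of 1 is a 2-fold change, and the genotypes were compared with limma over 22746 probe sets. Array medians lay between 7.24 and 7.42 (log2), arrays correlated with each other at 0.928 to 0.955, and 163 to 511 probe sets per array were listed at 0. Of the markers listed for shoot and root, 1 of 6 each could be read, and of those for seed storage none of 5. RCA, which encodes the Rubisco activase of green tissue, had a signal of 14.28 to 14.74 (log2) in all arrays.

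The signal of CHI was 8.62, 8.22 and 7.03 (log2) in replicates 1, 2 and 3 of WT. In replicates 1, 2 and 3 of 35S::OsHOX24 the signal of CHI was 6.09, 6.22 and 6.91 (log2). The transgenic arrays were all below the WT arrays, but the gap between the lowest WT array and the highest transgenic array was only 0.12 (log2), and both of these arrays were replicate 3. CHI averaged 7.96 ± 0.83 (log2, SD, n = 3) over the WT arrays and 6.41 ± 0.44 (log2, SD, n = 3) over the transgenic arrays. This corresponds to 34.2% of WT, or a log2 difference of -1.55 (limma standard error 0.48). CHI was the 1 gene of the 6 that was lower at the thresholds used in the study (a 2-fold or larger change with an unadjusted p no higher than 0.05), which 1.61% of all probe sets also met. It was also the 1 gene of the 6 whose genotypes did not overlap, which held, with the transgenic arrays below, for 4.13% of all probe sets. Both facts belong to the choice of CHI. The difference was -1.06 (log2) without replicate 1 of both genotypes, and it missed the threshold in that setting and without WT replicate 1 or 2 (-1.22 and -1.41) or 35S::OsHOX24 replicate 1 or 2 (-1.39 and -1.46). With the replicate number as a block the difference stayed at -1.55 and the unadjusted p was just above the threshold. In bulk seedlings, fewer cells that express a gene and less RNA per cell cannot be told apart.

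**Figure D1:**
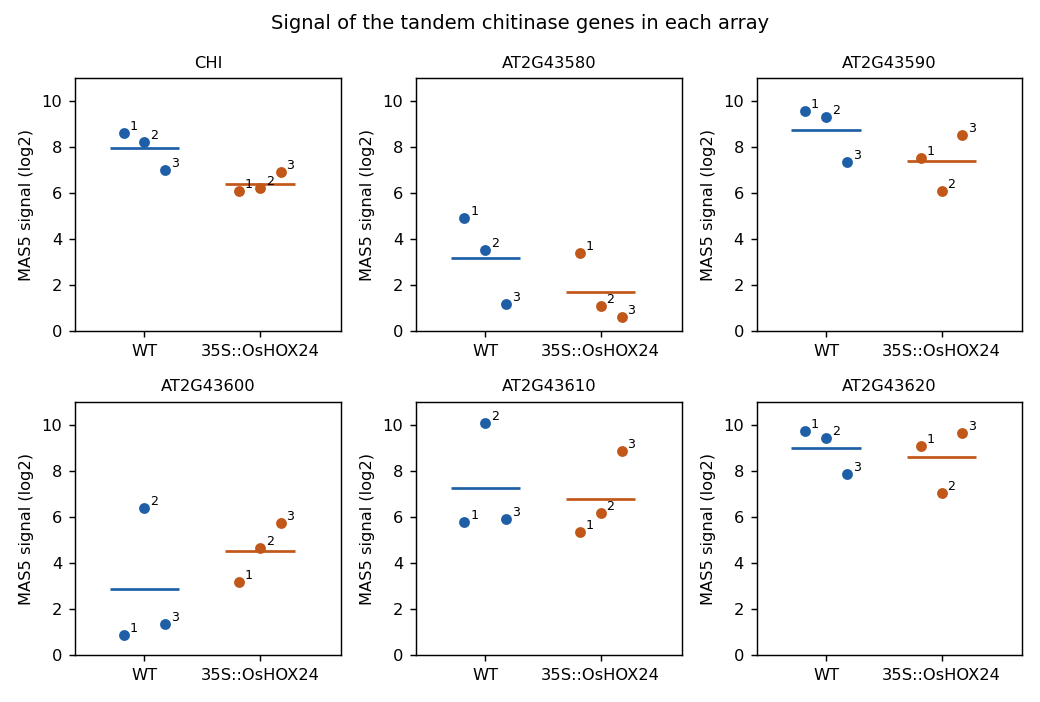
MAS5 signal (log2, y axis) of the 6 tandem chitinase genes in each WT array (blue) and each 35S::OsHOX24 array (orange); the digit at a point is the replicate number and the line is the group mean. The arrays of CHI separate by 0.12 (log2), whereas those of the other genes overlap.

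AT2G43590 came closest to CHI in its pattern over the arrays. Its signal was 9.58, 9.31 and 7.38 (log2) in replicates 1, 2 and 3 of WT, and 7.54, 6.12 and 8.55 (log2) in those of 35S::OsHOX24. WT replicate 3 was below transgenic replicates 1 and 3, so the genotypes overlapped. The log2 difference of AT2G43590 was -1.35 (standard error 0.83), with an SD of 1.20 in WT and 1.22 in 35S::OsHOX24. Without one array it ranged from -2.04, without WT replicate 3, to -0.71, without 35S::OsHOX24 replicate 2, so its size depended on these 2 arrays although its sign did not.

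AT2G43580, next to CHI on the chromosome, gave low signals of 4.91, 3.53 and 1.18 (log2) in replicates 1, 2 and 3 of WT. The corresponding signals of AT2G43580 in 35S::OsHOX24 were 3.40, 1.10 and 0.61 (log2). The genotypes overlapped, and replicate 1 was highest in each of them. The log2 difference was -1.50, close to that of CHI, but its standard error was 1.15. It was -2.52 without WT replicate 3, -2.35 without 35S::OsHOX24 replicate 1, -0.96 without 35S::OsHOX24 replicate 3 and -0.65 without WT replicate 1. When 16 was added to each signal before taking log2, so that weak signals count less, the difference of AT2G43580 shrank to -0.49, whereas that of CHI was -1.39.

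AT2G43600 was the 1 gene of the cluster with a higher mean in 35S::OsHOX24. Its signal was 0.88, 6.40 and 1.36 (log2) in replicates 1, 2 and 3 of WT, and 3.17, 4.67 and 5.75 (log2) in those of 35S::OsHOX24. The highest of the 6 arrays was therefore a WT array, WT replicate 2, while the other two WT arrays were the lowest. The log2 difference of AT2G43600 was 1.65 (standard error 1.57). It was 3.41 without WT replicate 2 and 0.65 without WT replicate 1. Calculated from mean linear signals the difference was -0.01 (log2), and with 16 added to each signal it was 0.37, so no direction can be given for AT2G43600.

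AT2G43610 had the widest signals after AT2G43600. It gave 5.78, 10.07 and 5.92 (log2) in replicates 1, 2 and 3 of WT, and 5.36, 6.16 and 8.87 (log2) in those of 35S::OsHOX24. One array of each genotype, WT replicate 2 and 35S::OsHOX24 replicate 3, stood far above the others, and on the linear scale the signal of AT2G43610 ran from 41.0 to 1075. The difference between genotypes, -0.46 (log2, standard error 1.45), was small beside the range of 4.29 (log2) within WT alone. Its sign turned without WT replicate 2 (0.94) or without 35S::OsHOX24 replicate 1 (0.26).

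AT2G43620 closes the cluster. Its signal was 9.75, 9.45 and 7.86 (log2) in replicates 1, 2 and 3 of WT, and 9.07, 7.05 and 9.67 (log2) in those of 35S::OsHOX24. The genotypes overlapped almost completely, with a log2 difference of -0.42 (standard error 0.82) that became 0.35 without 35S::OsHOX24 replicate 2. Considering the cluster as a whole, 5 genes had a lower and 1 a higher mean in 35S::OsHOX24, and the median log2 difference of the 6 genes was -0.91. Both values include CHI, which was chosen for its lower signal, and are a description. The sign of AT2G43610 and AT2G43620 also turned without one array. Over all probe sets the median log2 difference was -0.03 and 53.6% had a lower mean in 35S::OsHOX24.

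The genes on both sides of the cluster mostly had steadier signals than its members. From CHI to AT2G43620 the annotation lists no other protein-coding gene, and the nearest 5 genes that had a single-gene probe set were taken on each side. AT2G43560, which lies next to CHI and encodes a peptidyl-prolyl isomerase of the FKBP type, had a signal of 11.15, 10.81 and 11.11 (log2) in WT and of 11.49, 11.49 and 11.20 (log2) in 35S::OsHOX24. AT2G43630, next to AT2G43620, had a signal of 10.95, 10.73 and 11.40 (log2) in WT and of 11.07, 11.42 and 10.95 (log2) in 35S::OsHOX24. Of the 10 neighbours, 9 had log2 differences between -0.01 and 0.54 and a range over all 6 arrays of 0.33 to 1.06 (log2). The exception was AT2G43660, for a protein with a carbohydrate-binding X8 domain, whose low signal was listed at 0 in 35S::OsHOX24 replicate 1 and reached 4.34 (log2) in replicate 3. The transgenic arrays were all above the WT arrays in 2 of the 10 neighbours, AT2G43560 and AT2G43550, at log2 differences of 0.37 and 0.54, a pattern that 3.04% of all probe sets showed. None of the 10 was past the study's thresholds or had an unadjusted p under 0.05 with limma or with the methods' t-test, and the lowest adjusted p with limma was 1.

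**Figure D2:**
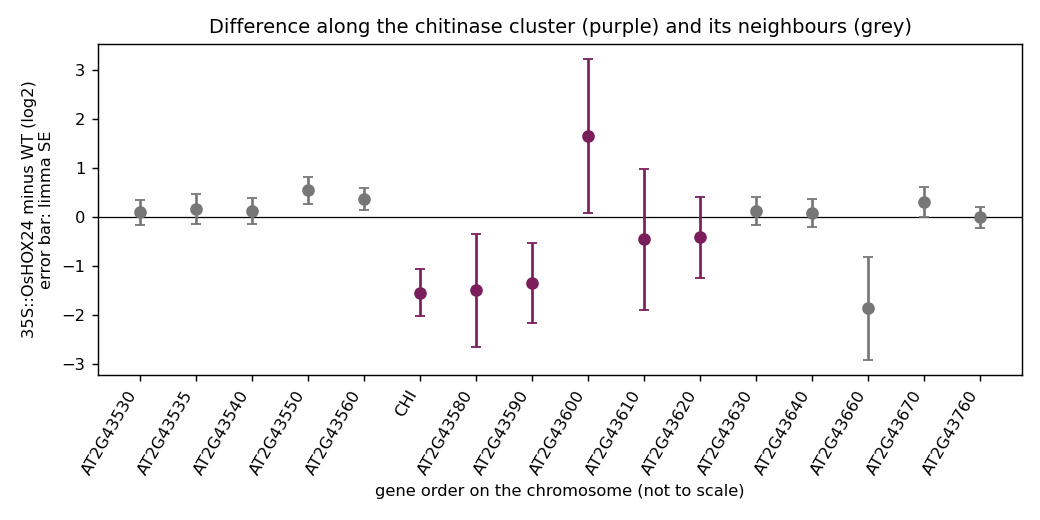
Log2 difference between 35S::OsHOX24 and WT (y axis; error bars are limma standard errors, 3 arrays per genotype) for the 6 tandem chitinase genes (purple) and 10 neighbouring genes (grey) in their order on the chromosome (x axis, not to scale). Of the neighbours, 9 lie between -0.01 and 0.54 with short error bars, while the members run from -1.55 to 1.65.

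Most members varied more between replicate arrays than probe sets of like signal did. The spread of CHI is not independent of its choice, since a call and separate genotypes need a small spread, whereas the other genes were taken by position. The pooled SD within a genotype was 0.66 (log2) for CHI, 1.21 for AT2G43590, 1.21 for AT2G43620 and 2.16 for AT2G43610. Among probe sets whose mean signal lay within 0.5 (log2) of the same gene, the median SD was 0.39 for CHI, 0.34 for AT2G43590, 0.32 for AT2G43620 and 0.39 for AT2G43610. The SD of AT2G43610 was larger than that of 99.9% of the 2585 probe sets of like signal. The corresponding share was 98.9% for both AT2G43590 and AT2G43620, 99.3% for AT2G43600, 84.7% for CHI and 77.4% for AT2G43580. In the 9 steady neighbours the SD within a genotype was 0.15 to 0.36 (log2).

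**Figure D3:**
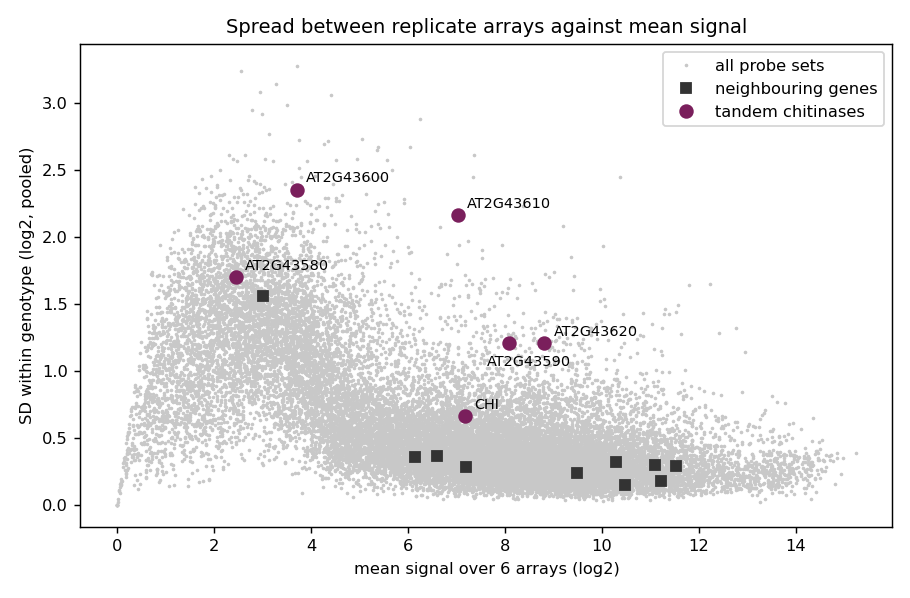
Pooled SD within genotype (log2, y axis) against mean signal over 6 arrays (log2, x axis) for all 22746 probe sets (light grey), the tandem chitinase genes (purple) and the 10 neighbouring genes (dark squares). AT2G43610, AT2G43590 and AT2G43620 lie at the upper edge of the probe sets of like signal, with SDs of 2.16, 1.21 and 1.21.

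The members followed each other in part. AT2G43590 and AT2G43620 were both lowest in WT replicate 3 among the WT arrays and in 35S::OsHOX24 replicate 2 among the transgenic arrays, as were 14.3% of all probe sets. Across the 6 arrays their signals correlated with Pearson's r = 0.91 (2-sided exact permutation p = 0.00417) and Spearman's rho = 0.94 (exact p = 0.0167). The adjusted p over the 15 pairs of members was 0.0625 for r and 0.250 for rho, so neither passed, and without the 2 arrays farthest from the median of AT2G43590 r was 0.74. AT2G43600 and AT2G43610 were both highest in WT replicate 2 and in 35S::OsHOX24 replicate 3, as were 16.8% of all probe sets. Their signals had r = 0.82 (exact permutation p = 0.0708, adjusted p = 0.354), rho = 0.83 (exact p = 0.0583, adjusted p = 0.438) and r = 0.95 without the 2 farthest arrays. For CHI and AT2G43590 r was 0.87, which includes the difference between genotypes for which CHI was picked and is given as a description, and r of their deviations from the genotype means was 0.85. These were the 3 pairs of the 15 with r above 0.8. The permutations took the arrays of both genotypes together, so r and p include any difference between genotypes. With deviations from the genotype means, r was 0.98 for AT2G43590 and AT2G43620 and 0.95 for AT2G43600 and AT2G43610, with no test. Neighbouring paralogues can share probe matches, and probe sequences were not examined, although none of the 6 probe sets is marked as cross-hybridizing.

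The outlying arrays of AT2G43590, AT2G43620, AT2G43600 and AT2G43610 were also at an end, within their genotype, of a measure used for RNA integrity. So were the lowest WT array and the highest transgenic array of CHI, both replicate 3. The highest WT array and the lowest transgenic array of CHI, both replicate 1, were not. The GAPDH control is read near both ends of its transcript, and a larger 3' minus 5' difference means relatively less signal from the 5' end. The difference was 3.25, 1.63 and 4.80 (log2) in replicates 1, 2 and 3 of WT and 3.29, 3.63 and 2.39 in those of 35S::OsHOX24. The array with the largest GAPDH difference in each genotype, WT replicate 3 and 35S::OsHOX24 replicate 2, was thus the one with the lowest AT2G43590 and AT2G43620, and the array with the smallest, WT replicate 2 and 35S::OsHOX24 replicate 3, was the one with the highest AT2G43600 and AT2G43610. In a fit with the GAPDH difference as a covariate, an alternative chosen after seeing the data, all 6 members had a negative slope, as did 44.1% of all probe sets. In log2 signal per log2 unit of the GAPDH difference, the slope was -1.56 (standard error 0.54) for AT2G43600, -1.49 (0.46) for AT2G43610, -0.77 (0.30) for AT2G43590, -0.68 (0.34) for AT2G43620 and -0.41 (0.19) for CHI. For AT2G43580 it was -0.49 with a larger standard error of 0.60. The differences between genotypes in this fit were -1.60 (log2, standard error 0.37) for CHI, -1.45 (0.60) for AT2G43590 and 1.46 (1.06) for AT2G43600, close to those without the covariate. The root marker AT5G17820, a peroxidase gene, was also highest in WT replicate 2 and 35S::OsHOX24 replicate 3, at 7.74 and 8.06 (log2), and was 4.76 to 6.55 in the other arrays. Of the root markers, 1 of 6 was measured. The parts of RNA integrity and of root tissue in the spread of these genes were not tested.

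**Figure D4:**
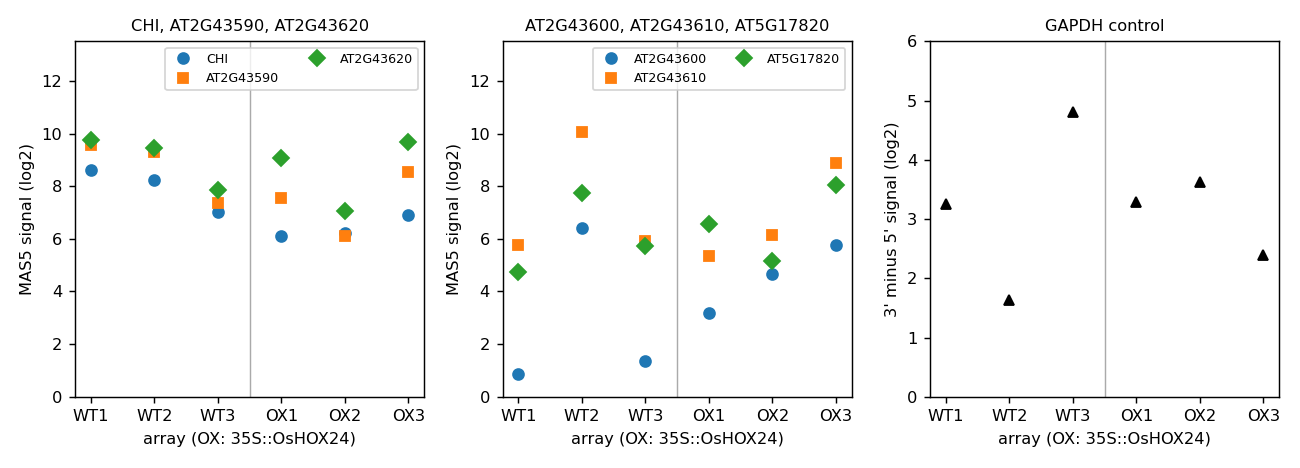
Signal (log2, y axes of the left and middle panels) of CHI, AT2G43590 and AT2G43620 and of AT2G43600, AT2G43610 and the root marker AT5G17820, and the GAPDH difference between 3' and 5' readings (log2, right panel), in each array (x axes; OX, 35S::OsHOX24). WT replicate 3 and 35S::OsHOX24 replicate 2 have the largest GAPDH differences of their genotypes (4.80 and 3.63) and the lowest AT2G43590 and AT2G43620.

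To see whether other chitinases and chitin-related defence genes differed between the genotypes, 6 lists with 54 genes were examined, of which 16 genes could be read. With limma, none of the 16 was past the study's thresholds, against 2.53% of all probe sets in either direction, and none had an unadjusted p under 0.05 with limma or with the methods' t-test. Lower means in 35S::OsHOX24 were found for 11 of the 16 and higher means for 5, and the median log2 difference was -0.45. Of all probe sets 53.6% had a lower mean, with a median log2 difference of -0.03.

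Among the other GH19 chitinases, 4 of 7 could be read. AT1G56680 had a signal of 5.31, 5.88 and 3.18 (log2) in WT and of 2.46, 2.13 and 5.20 (log2) in 35S::OsHOX24, so that the genotypes overlapped at a log2 difference of -1.53 (standard error 1.05). AT3G47540, AT1G02360 and AT4G01700 had log2 differences of -0.45, -0.29 and 0.01. Of the chitinases of the GH18 family, which have an unrelated fold and the same substrate, 5 of 10 could be read. ChiC, a class V chitinase of this family, had a signal of 7.40, 7.75 and 6.88 (log2) in WT and of 6.55, 6.15 and 6.89 (log2) in 35S::OsHOX24. As in CHI, the lowest WT array and the highest transgenic array were both replicate 3, but here they overlapped by a small margin. The log2 difference of ChiC was -0.81 (standard error 0.33), with the lowest unadjusted p of the 16 genes, just above the threshold (limma, adjusted p = 1). The remaining genes of this family, AT4G19720, AT4G19730, AT4G19740 and AT4G19820, had low signals and log2 differences of 0.54, 0.38, -1.12 and -0.83.

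Of the genes of chitin perception, 2 of 10 could be read. BIK1, a receptor-like cytoplasmic kinase that relays immune signals, had a log2 difference of -0.45 (standard error 0.33), and AT5G18610, the kinase PBL27 that acts after the chitin receptor, of 0.04 (0.88). Of the defensin and pathogenesis-related genes, 3 of 10 could be read. PDF1.4, a defensin gene, had a signal of 7.31, 7.89 and 7.28 (log2) in WT and of 6.33, 6.44 and 7.31 (log2) in 35S::OsHOX24, a log2 difference of -0.80 (standard error 0.36). In PDF1.4, too, replicate 3 was the array in which the genotypes met. The jasmonate and ethylene marker PDF1.2 and its close copy PDF1.2b, whose probe set is marked as cross-hybridizing, had log2 differences of 0.03 and -0.53. SAG101, a partner of EDS1 in immune signalling and the 1 gene read of 10 for salicylic acid, had a log2 difference of -0.39 (standard error 0.32), and THI2.1, a thionin gene and the 1 read of 7 for jasmonate and ethylene, of -0.62 (0.82).

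**Figure D5:**
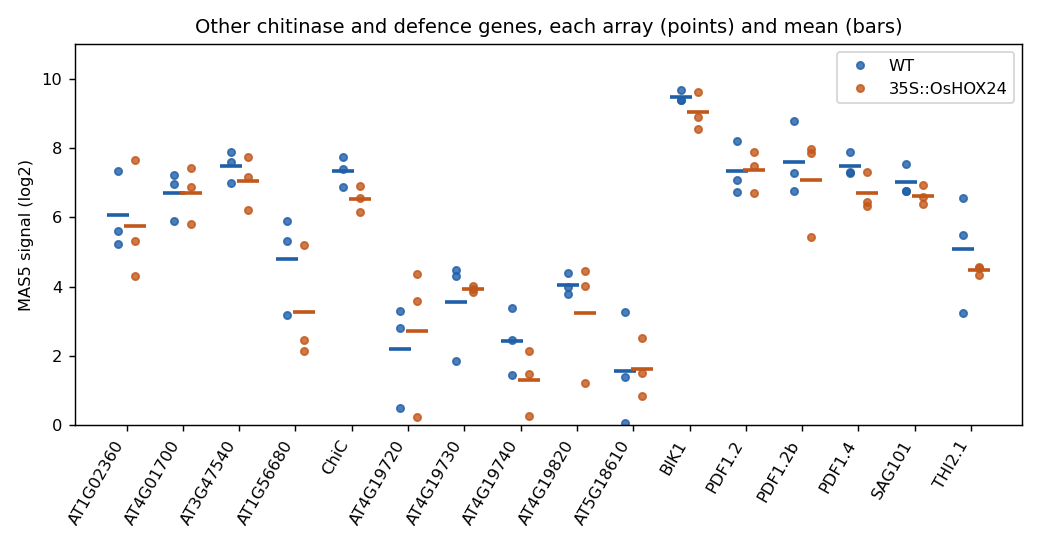
MAS5 signal (log2, y axis) of 16 other chitinase and defence genes in each array (points) with group means (bars), WT in blue and 35S::OsHOX24 in orange. The genotypes overlap in every gene shown, with ChiC, PDF1.4 and AT1G56680 having log2 differences of -0.81, -0.80 and -1.53.

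Several of these genes also shared an order of the arrays within each genotype. AT1G02360, AT4G01700, AT3G47540, AT1G56680, ChiC and AT4G19820 were highest in WT replicate 2 and 35S::OsHOX24 replicate 3 and lowest in WT replicate 3 and 35S::OsHOX24 replicate 2. These 6 were all chitinase genes, and they made up 37.5% of the 16 genes, whereas 6.24% of all probe sets had this order of arrays. No member of the cluster had the full order. AT2G43600 and AT2G43610 shared its upper end and AT2G43590 and AT2G43620 its lower end, while CHI had WT replicate 1 as its highest and 35S::OsHOX24 replicate 1 as its lowest array. This order of arrays was noticed after the values were seen, and genes on the same arrays are not independent of each other.

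The genes most like CHI over the 6 arrays were sought among 6018 probe sets of single genes with a mean signal above the median. By Pearson's r of the log2 signals over 6 arrays, the closest were AT4G25900 (r = 0.995), AT3G52800 (r = 0.98), ETFALPHA (AT1G50940, r = 0.97), AT3G08670 (r = 0.97) and AT3G60680 (r = 0.97). AT4G25900 had a signal of 10.39, 10.08 and 9.60 (log2) in WT and of 9.01, 9.07 and 9.50 (log2) in 35S::OsHOX24. This is the same order of arrays as in CHI with a smaller log2 difference of -0.83. The differences of the other 4 genes were smaller still, from -0.66 for AT3G52800 to -0.21 for AT3G60680. These r values are the highest of many over 6 points and share the difference between genotypes, so they describe likeness only. Of the chitinase genes read here, only AT2G43590 and AT2G43620 had a mean above this median, and neither was among the closest genes. The other chitinase genes had lower means, so this filter left them out in advance.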

How the data were processed

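Total RNA of 10-day-old seedlings was hybridised to Affymetrix 3' expression arrays, 3 per genotype, and the genotype of all 6 was taken from their labels. Signals were computed by the authors with MAS5, whose version is not given in the sources used here. The deposited log2 values were used with no further normalization or filter. After leaving out 64 control probe sets, 22746 probe sets were compared with limma 3.58.1 in R 4.3.3 (lmFit, eBayes, no covariate) with Benjamini-Hochberg adjustment. Calls needed a change of 2-fold or more and an unadjusted p no higher than 0.05, as in the study. An adjusted p under 0.05 was reached by 0 probe sets with limma (lowest adjusted p = 0.214) and with the methods' t-test, while 785 and 798 had an unadjusted p under 0.05. The number of arrays limits the precision.

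A platform table gave 13513 probe sets with a single gene, of which 13436 matched the RefSeq annotation of assembly TAIR10.1 by gene identifier. It was used for names and gene order; no coordinates are printed because no build is given with the array values. Genes read by more than 1 probe set were represented by that of highest mean. Genes named were the members, the nearest 5 measured genes on each side, the measured members of 6 lists and of marker lists, and the 5 genes with the highest Pearson's r with CHI. Members and lists were chosen with earlier results of these data known. Exact permutation tests of r and rho used all orders of the 6 arrays. The scripts were tested on simulated data. Alternatives were quantile normalization or median centring, log2(signal + 16), only signals beyond the 40th percentile, a variance trend or array weights in limma, the methods' t-test, a replicate block, omission of each array or of replicate 1 of both genotypes, mean linear signals and, chosen after seeing the data, the GAPDH covariate. Sequences of the genes or probes were not used here.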

Additional observations from a re-analysis of the deposited data

How the results depend on the processing

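The log2 difference of CHI was between -2.01 and -1.22 without one array at a time and -1.06 without replicate 1 of both genotypes. It was negative under every alternative run. Its transgenic arrays were all below its WT arrays, so leaving out arrays could change its size but not its sign. The replicate number was run as a block, although the numbers did not pair the arrays: deviations of same-numbered arrays correlated at 0.11, -0.20 and -0.18 for replicates 1, 2 and 3. Between genotypes the highest correlations over all probe sets were 0.29 (WT replicate 2 with 35S::OsHOX24 replicate 3) and 0.18 (WT replicate 3 with 35S::OsHOX24 replicate 2). These are the array pairs at the upper and lower ends of the order seen in several chitinase genes. With the replicate block 678 probe sets were past the study's thresholds, against 575 without it. CHI was not among them, whereas AT2G43580, with its low signals, was (log2 difference -1.50). Over all probe sets the count was 292 with the methods' t-test, 114 with log2(signal + 16), 57 above the 40th percentile of signal, where AT2G43580 and AT2G43600 are left out, and 615 to 751 without one array. Of the 16 listed chitinase and defence genes, 0 to 2 were past the thresholds without one array. These were ChiC without WT replicate 3 (log2 difference -1.04), THI2.1 without WT replicate 2 (-1.55) and PDF1.4 and AT1G56680 without 35S::OsHOX24 replicate 3 (-1.11 and -2.50). With the GAPDH covariate, 1 of them, AT1G56680, was past the thresholds (-1.67). The members are given as a description. Their largest log2 differences without one array were -2.52 for AT2G43580 (without WT replicate 3) and 3.41 for AT2G43600 (without WT replicate 2). Besides CHI, the members past the thresholds without one array were AT2G43600 in that setting and AT2G43590 without WT replicate 3 (-2.04). The cause of these changes was not tested.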

Other observations

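With the difference between genotypes taken out, the genes closest to CHI in their deviations from the genotype means over the 6 arrays were AT1G11780, AT1G44920, AT1G06100, AT5G10560 and AT4G29700, with Pearson's r from 0.997 down to 0.992. None of these 5 was among the 5 genes closest to CHI by signal. AT1G06100 had a signal of 8.21, 7.79 and 6.41 (log2) in replicates 1, 2 and 3 of WT and of 7.57, 7.72 and 8.28 (log2) in those of 35S::OsHOX24. It thus shared the low value of CHI in WT replicate 3 and its high value in 35S::OsHOX24 replicate 3, and its mean was 0.39 (log2) higher in 35S::OsHOX24. AT4G29700 had 8.49, 8.29 and 7.07 (log2) in WT and 7.37, 7.35 and 8.01 (log2) in 35S::OsHOX24, a log2 difference of -0.37. These values are given as a description over 6 arrays.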
